A study of Mus musculus with 4 samples.

Results

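The genes described here are 10 members of the TNF and interleukin-1 (IL-1) signalling system and of the inflammasome: Tnf, Il1a, Il1b, Il1rn, Il18, Nlrp3, Pycard, Casp1, Gsdmd and Tlr4. They were chosen by name, with earlier results of these data known. Each is represented by its brightest probe set with a single gene symbol, and all 10 of 10 were found among the 22180 genes measured. The livers came from males, either wild type (WT) or lacking Nrg4 (KO), the gene of neuregulin 4, which is secreted and signals through the receptor ErbB4. Both genotypes received a NASH diet, one that gives a fatty, inflamed liver (non-alcoholic steatohepatitis), starting at 3 months of age and lasting 20 weeks, and were fed at collection. Each of the 4 Affymetrix Mouse Gene ST 2.1 arrays held a pool of liver RNA, 2 pools per genotype. How many animals made up a pool, which strain was used and how Nrg4 was disrupted were not given in the labels. All 4 pools were from this diet, so the values compare genotypes on it.

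TNF is a cytokine that macrophages release and that acts on 2 receptors to switch on the transcription factor NF-kB or cell death. IL-1 alpha and IL-1 beta signal through a shared receptor, which the antagonist IL-1RN blocks, and IL-18 has a receptor of its own. Inflammasomes are protein platforms in which a sensor such as NLRP3 joins the adaptor ASC, the product of Pycard, to activate caspase-1, which matures IL-1 beta and IL-18 and cuts gasdermin D, the pore former of pyroptosis. TLR4 senses bacterial lipopolysaccharide (LPS) and in macrophages raises transcription of Tnf, Il1b and Nlrp3. In liver these genes are read mostly in Kupffer cells and recruited monocytes, while hepatocytes carry many of the receptors. Much of the control of the inflammasome lies in protein assembly and cleavage, which RNA arrays do not measure.

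The start regions of Tnf, Il1a and Il1b are shown because these 3 cytokine genes are described first below. Each sequence is the 250 bases before the RefSeq transcription start (assembly GRCm38.p6), written 5′ to 3′ on the gene's strand. Capitals mark TATAAA on the gene's strand and, on either strand, GGG and CC with any 5 bases between them, the first a core promoter element and the second a loose form of an NF-kB site. Tnf lies at chr17:35202008-35202257, Il1a at chr2:129309973-129310222 and Il1b at chr2:129371140-129371389, all on the minus strand.
Tnf: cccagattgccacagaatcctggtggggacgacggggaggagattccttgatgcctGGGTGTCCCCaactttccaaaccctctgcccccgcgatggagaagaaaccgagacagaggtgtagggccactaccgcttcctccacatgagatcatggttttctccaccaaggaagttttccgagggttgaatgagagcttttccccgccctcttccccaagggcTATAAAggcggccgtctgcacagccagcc
Il1a: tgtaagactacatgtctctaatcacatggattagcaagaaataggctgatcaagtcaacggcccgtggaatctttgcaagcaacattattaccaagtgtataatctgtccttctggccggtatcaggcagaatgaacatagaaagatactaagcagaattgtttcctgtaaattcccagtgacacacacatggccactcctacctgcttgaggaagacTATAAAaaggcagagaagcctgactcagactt
Il1b: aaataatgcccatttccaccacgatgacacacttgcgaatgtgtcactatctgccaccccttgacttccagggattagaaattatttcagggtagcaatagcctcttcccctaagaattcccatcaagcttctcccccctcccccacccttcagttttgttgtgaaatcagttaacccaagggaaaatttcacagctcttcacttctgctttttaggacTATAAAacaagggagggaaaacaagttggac
All 3 windows hold TATAAA, which begins 29, 32 and 31 bases before the start of Tnf, Il1a and Il1b and is found in 7.6% of all 32851 windows of this length. The GGG and CC pair is found in 45.8% of all windows, and of these 3 only the Tnf window holds it, 194 bases before the start. RefSeq windows were found for 8 of the 10 members, not for Gsdmd and Tlr4, and windows of Il1rn, Nlrp3 and Casp1 also hold the GGG and CC pair. A match of letters is a description of the window and not evidence of binding.

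Tnf was the member that stood furthest from WT, and no member passed the test. Values are deposited log2 expression values whose zero point is unknown, so they are compared between pools and not between genes. The threshold for a call was an adjusted p below 0.05 in limma, a linear model that shares variance estimates across genes, with Benjamini-Hochberg adjustment over the 12458 genes above a filter on dim signal. By that rule 0 of the 9 members above the filter, Pycard only through its KO pools, were called, beside 0.0482% of all tested genes in either direction, 0.0241% higher and 0.0241% lower. At an unadjusted p under 0.05 by limma there was 1 member higher in KO, Tnf, and none lower, beside 6.37% of tested genes higher and 3.92% lower. In 2 of the 10 members both KO pools lay above both WT pools, beside 20.9% of all measured genes, which is close to the background. In 0 members did both KO pools lie below both WT pools, beside 17% of all measured genes.

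Tnf was at 1.39 in WT pool 1 and 0.89 in WT pool 2, against 2.01 in KO pool 1 and 2.28 in KO pool 2. Both KO pools were therefore above both WT pools. The difference was 1.01 ± 0.25 on the log2 scale (SE; 95% interval 0.38 to 1.63; limma, adjusted p = 0.318). Of all tested genes, 1.54% differed by at least this much in the same direction. The WT mean was only 0.59 over the probe sets' median, where array signals are compressed, so no fold is given. When any 1 pool was left out the difference stayed between 0.76 and 1.26. An exact two-sided permutation of 2 pools against 2 cannot go below p = 0.333, and that is the value it gave for Tnf.

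Il1a, an IL-1 that is active without inflammasome cleavage and is released by dying cells, had a similar mean difference and a wide spread. The WT pools read 2.06 and 0.74, against 2.02 and 2.58 for the KO pools. WT pool 1 lay above KO pool 1, so the groups overlapped. The difference was 0.90 ± 0.46 (SE; 95% interval -0.25 to 2.05; limma, adjusted p = 0.586). It rested on WT pool 2, without which it was 0.25. The WT pools of Il1a were 1.31 apart, a gap that 1.04% of tested genes reached.

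Il1b, the main secreted IL-1 of macrophages, had pools that overlapped fully. It was at 1.05 and 1.94 in the WT pools and at 1.76 and 1.33 in the KO pools, both KO values falling between the WT values. The difference was 0.055 ± 0.35 (SE; 95% interval -0.81 to 0.92; limma, adjusted p = 0.967), and its sign turned with quantile normalization. WT pool 2 was the highest pool for Il1b and the lowest for Il1a. The 2 genes lie on the same chromosome, and the interval of Il1b includes the difference measured for Il1a.

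Il1rn, the secreted receptor antagonist, was at 1.85 and 1.80 in the WT pools and at 1.91 and 2.17 in the KO pools. The groups did not overlap, but they were separated by little. The difference was 0.22 ± 0.20 (SE; 95% interval -0.28 to 0.72; limma, adjusted p = 0.766). Il18, which needs caspase-1 to mature, was at 3.94 and 3.63 in the WT pools and at 3.48 and 4.31 in the KO pools. The KO pools of Il18 held both the lowest and the highest value, and the difference was 0.11 ± 0.32 (SE; 95% interval -0.69 to 0.90; limma, adjusted p = 0.937).

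**Figure D1:**
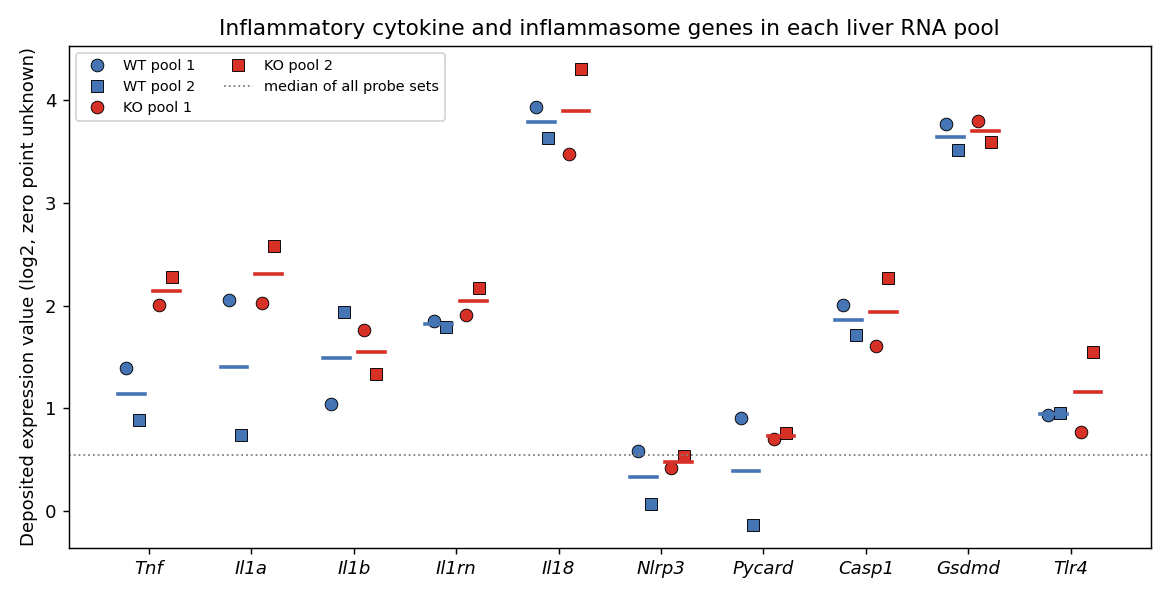
Deposited log2 expression value (vertical axis, zero point unknown) of each of the 10 genes in WT pools 1 and 2 (blue) and KO pools 1 and 2 (red), with a short line at each genotype's mean of 2 pools and a dotted line at the median of all probe sets. The red points of Tnf and Il1rn lie above the blue points, and in the other 8 genes they overlap.

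None of the 4 inflammasome genes had KO pools apart from the WT pools. Nlrp3, the sensor, was at 0.59 and 0.07 in the WT pools and at 0.42 and 0.53 in the KO pools. Its mean lay 0.14 below the median of all probe sets, so it was the 1 member under the filter on dim genes, and a change at this level may not be seen. The difference was 0.15 ± 0.24 (SE; 95% interval -0.43 to 0.72) in a limma fit of all 22180 genes (adjusted p = 0.922).

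Pycard, the adaptor ASC, was also dim, with a mean 0.017 above that median. Its WT mean was 0.16 below the median and its KO mean 0.19 above, so it was tested only through its KO pools. It was at 0.91 and -0.13 in the WT pools and at 0.70 and 0.76 in the KO pools, so the KO values fell between the WT values. The difference was 0.34 ± 0.36 (SE; 95% interval -0.55 to 1.24; limma, adjusted p = 0.794), and without WT pool 2 it was -0.18. As with Il1a, WT pool 2 was the pool apart.

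Casp1, the protease of the inflammasome, was at 2.00 and 1.71 in the WT pools and at 1.61 and 2.27 in the KO pools. The KO pools enclosed the WT pools, and the difference was 0.080 ± 0.28 (SE; 95% interval -0.62 to 0.78; limma, adjusted p = 0.947), with a sign that turned under quantile normalization. Gsdmd, the pore former, was at 3.77 and 3.52 in the WT pools and at 3.80 and 3.60 in the KO pools. Its difference of 0.055 ± 0.21 had the second narrowest interval of the members (SE; 95% interval -0.46 to 0.57; limma, adjusted p = 0.952). The other probe set of Gsdmd, a dimmer one, differed by 0.16.

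Tlr4, the LPS receptor, was at 0.94 and 0.95 in the WT pools and at 0.77 and 1.54 in the KO pools. The KO pools lay on either side of the WT pools, and the difference was 0.21 ± 0.30 (SE; 95% interval -0.53 to 0.95; limma, adjusted p = 0.852). The intervals of the members other than Tnf all include 0, and they also include log2 differences of 0.5 in either direction for Il1b, Il18, Pycard, Casp1 and Tlr4. A difference of that size in these genes is therefore not excluded with 2 pools per genotype.

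The mean difference was above 0 in all 10 members, with a median of 0.18, while 52.4% of all measured genes were above 0, with a median of 0.018. The signs were not stable: 7 of the 10 turned under at least 1 of 11 other settings, and Tnf, Il1a and Il1rn did not. The filter, variance trend and replicate block settings cannot change a difference. For Tnf and Il1rn, whose pools did not overlap, leaving out a pool cannot turn the sign, which there only restates the non-overlap. The pools of a genotype were, by their median gap, further apart in the members than over the tested genes. The WT pools differed by a median of 0.40 in the members and 0.23 in the tested genes, and the KO pools by 0.35 and 0.26. KO pool 2 was the highest pool for 6 members, beside 29.1% of tested genes, and WT pool 2 the lowest for 6, beside 27.7%. The 10 differences had a median of 0.073 when WT pool 2 was left out and of 0.39 when KO pool 1 was.

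**Figure D2:**
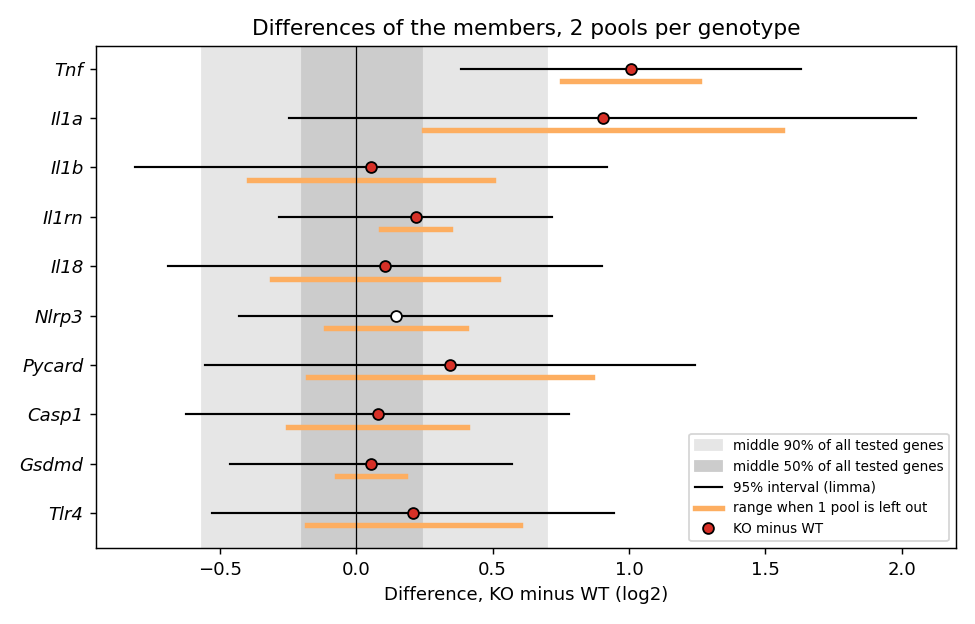
Log2 difference between genotypes (horizontal axis, KO minus WT) for each of the 10 genes, with its 95% interval from limma (black line) and the range when any 1 pool is left out (orange line), over grey bands that run from the 25% to the 75% and from the 5% to the 95% point of the 12458 tested genes; the open point, Nlrp3, was under the filter on dim genes. The interval of Tnf runs from 0.38 to 1.63 and those of the other 9 genes include 0.

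In the same pools, Nrg4 was lower in KO and most monocyte-derived or lipid-associated macrophage markers were higher on average, without passing the adjusted threshold. Nrg4 was at 2.54 and 2.30 in the WT pools and at 0.93 in both KO pools, a difference of -1.49 ± 0.20 (SE; limma, adjusted p = 0.182 over all 22180 genes). The value in KO pool 1 is 1 that other probe sets of that array share, and the KO mean was 0.39 over the probe sets' median. In the KO pools, 11 of 12 general leukocyte and macrophage markers were above WT on average, and the summed log2 level of the list was 44.6 to 45.3 in WT and 50.3 to 51.2 in KO. Of 11 measured markers for macrophages of monocyte origin or lipid-associated type 10 were above WT. Their summed levels were 29.5 to 30.4 in WT and 37.7 to 39.7 in KO. Of the defining markers Ccr2 differed by 0.73 and Cx3cr1 by 1.59, while Ly6c2 was at -0.013 with pools that overlapped. The WT mean of Cx3cr1 was only 0.23 over the probe sets' median. Resident Kupffer cell markers were divided, 4 above and 4 below, and summed to 36.1 to 37.5 in WT and 34.6 to 36.2 in KO. The lower sum rested on Marco, a scavenger receptor, which was at 2.63 and 3.53 in WT and at 0.76 and 0.66 in KO (-2.37 ± 0.33, SE; limma, adjusted p = 0.181, and 0.018 with a variance trend). Without Marco, which is named after its value was seen, the Kupffer sums were 33.5 and 34.0 in WT and 35.5 and 34.0 in KO. Neutrophil markers were dim, with 1 of 10 above the filter and the defining S100a8, S100a9 and Ly6g under it, and summed to 3.08 to 3.97 in WT and 3.11 to 3.19 in KO. The hepatocyte markers were bright, and their sums were 70.4 to 70.8 in WT and 68.7 to 69.8 in KO. Of 9 cholangiocyte markers 8 were above WT, with sums of 10.5 to 11.3 in WT and 16.2 to 18.9 in KO. The defining Krt7 and Epcam differed by 0.40 and 0.71, while Krt19 was at -0.058 with pools that overlapped. Krt7 passed the filter only through its KO pools. Of 10 stellate cell markers 8 were above WT, with sums of 33.2 to 33.5 in WT and 36.0 to 38.1 in KO. The defining Lrat, Des and Reln differed by 0.11, -0.092 and -0.11, with pools that overlapped. Without Pdgfra, picked after its value was seen, the stellate cell sums were 30.0 to 31.1 in WT and 31.3 to 33.8 in KO. The sums of sinusoidal endothelial, T and NK cell and B cell markers were 45.4 to 46.6, 7.49 to 8.43 and 7.16 to 7.73 in WT and 46.4 to 47.5, 7.80 to 8.79 and 7.90 to 9.32 in KO. The T and NK cell and B cell sums also depended on 1 gene each, Cd3g and Jchain, picked after their values were seen, without which they were 6.74 to 7.43 and 5.21 to 6.32 in WT and 6.32 to 6.37 and 5.17 to 6.30 in KO. Among these markers 0 genes passed the adjusted threshold by limma, beside 0.0482% of all tested genes. At an unadjusted p under 0.05, 6 of 12 tested general, 8 of 11 monocyte-derived, 3 of 7 cholangiocyte, 2 of 10 stellate cell, 2 of 4 B cell and 1 of 7 T and NK cell markers were higher, beside 6.37% of all tested genes. Of the Kupffer cell markers 1 of 8 was lower, Marco, beside 3.92%.

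Tnf was set against 2 macrophage marker lists in its own array, and the result depended on the list. Minus the mean of the general list its level was -2.39 and -2.83 in WT and -2.25 and -1.92 in KO. These values did not overlap and differed by 0.52. Against the monocyte-derived list Tnf was at -1.30 and -1.87 in WT and -1.42 and -1.33 in KO, which overlapped and differed by 0.21. Of the other members Il1a also differed upward on average, by 0.42 and 0.11 against the 2 lists, with pools that overlapped, and the remaining 8 were negative against both lists, between -0.14 and -0.74. On average these 8 members differed less between genotypes than the macrophage markers did. Among them Nlrp3, Pycard and Tlr4 had means -0.14, 0.017 and 0.51 from the median of all probe sets, where array signals are compressed. Differences of such dim genes are not comparable in size with those of brighter markers. The WT mean of Tnf was itself only 0.59 above that median, so this limit also holds for its differences of 0.52 and 0.21. In bulk RNA more cells of a type and more RNA per cell cannot be told apart, and the part of cell composition in the Tnf difference was not tested.

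**Figure D3:**
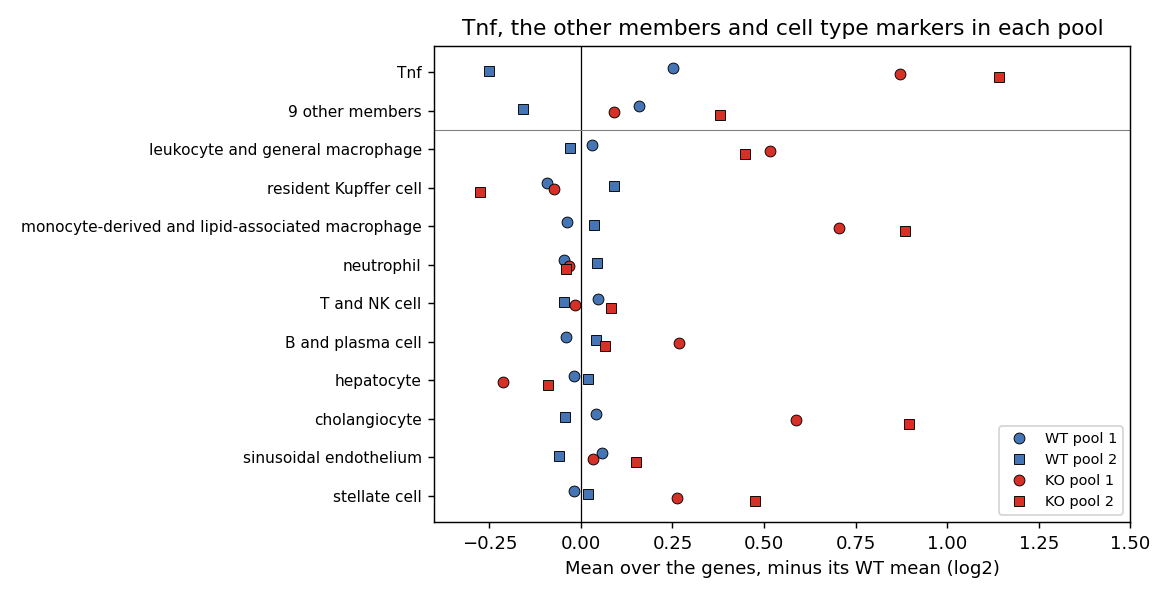
Mean log2 level of Tnf, of the 9 other members and of each cell type marker list in each pool, minus the mean of the 2 WT pools (horizontal axis); WT pools are blue and KO pools red. Tnf lies at 0.87 and 1.14 in the KO pools, the monocyte-derived macrophage list at 0.70 and 0.88, the general list at 0.52 and 0.45, and the 9 other members at 0.090 and 0.38.

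Of 153 other genes of these pathways, in 11 lists by role, 144 were measured and 100 tested, and 0 passed the adjusted threshold by limma in either direction. With no adjustment, 13% were higher and 4% lower at p under 0.05, beside 6.37% and 3.92% of all tested genes. Of the 100, Il23a, Ltb and Tlr6 passed the filter on dim genes only through their KO pools, and 2 genes only through their WT pools. Without these 12 were higher and 4 lower of 95. Their median difference was 0.12 over the measured genes. In 46 of the 144 measured genes both KO pools lay above both WT pools, beside 20.9% of all measured genes. In 24 both lay below, beside 17%. The genes named below are the 3 of each list with the smallest p by limma, given as values with SE, and any other is marked. A small p goes with pools that do not overlap, so non-overlap in genes picked this way is not a separate result.

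On the receiving side of TNF, no gene reached an unadjusted p under 0.05 by limma. Of 17 genes for TNF release, receptors and the receptor complex 16 were measured, 11 above 0 and 5 below, with a median of 0.13. Sharpin, a part of the linear ubiquitin ligase, differed by 0.63 ± 0.30, or 0.27 without WT pool 2, Tab1, a partner of the kinase TAK1, by 0.44 ± 0.21, and Rhbdf2, which carries the TNF-shedding protease ADAM17 to the cell surface, by 0.40 ± 0.24. The receptors Tnfrsf1a at 0.25 ± 0.25 and Tnfrsf1b at -0.025 ± 0.20, named after their values were seen, had pools that overlapped. Both changed sign without WT pool 1, to -0.024 and 0.063.

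The other IL-1 family genes were split, with a receptor below WT and a decoy above it. Il1r1, the signalling IL-1 receptor, was at 7.03 and 6.92 in the WT pools and at 6.08 and 6.51 in the KO pools, a difference of -0.68 ± 0.23 (SE; limma, adjusted p = 0.419). Il18bp, a secreted protein that traps IL-18, was at 3.88 and 4.38 in WT and at 4.87 and 4.88 in KO, a difference of 0.74 ± 0.24 (SE; limma, adjusted p = 0.399). In both genes the groups did not overlap. Il33, an alarmin of the family, differed by 0.63 ± 0.27 with a WT mean 0.15 above the median of all probe sets. Of the 14 measured genes 6 were above 0 and 8 below, with a median of -0.058.

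Downstream of these receptors adaptors and IRAK kinases were split, while most NF-kB genes were above 0, beside 52.4% of all measured genes. None passed the adjusted threshold by limma. Of 9 measured adaptors and IRAK kinases 4 were above 0 and 5 below, with a median of -0.098. Irak3, the inhibitory member, differed by 0.32 ± 0.21, the adaptor Ticam1 by -0.39 ± 0.29 and Irak1 by -0.45 ± 0.40, the last at 0.087 without KO pool 1. All 6 measured NF-kB subunits and IKK kinases were above 0, with a median of 0.21, led by Relb at 0.36 ± 0.23, Rela at 0.26 ± 0.20 and Rel at 0.26 ± 0.30, and Rel was at -0.11 without WT pool 1. Among 13 feedback inhibitors of NF-kB 10 were above 0, with a median of 0.21. Tnip2, which binds the ubiquitin editor A20, differed by 0.57 ± 0.22, the inhibitor Nfkbie by 0.51 ± 0.23 and Zfp36, which destabilises Tnf mRNA, by -0.43 ± 0.21.

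Among the LPS receptor's relatives and partners, Cd14 had the smallest p of all genes in the 11 lists. Cd14, which hands LPS to TLR4, was at 1.07 and 1.08 in the WT pools and at 2.46 and 2.34 in the KO pools. The pools of a genotype were close and the genotypes apart, by 1.32 ± 0.19 (SE; limma, adjusted p = 0.181, and 0.088 to 0.602 over 11 other settings). The WT mean was only 0.53 over the probe sets' median, so no fold is given. Tlr12, a receptor for microbial profilin, differed by 1.17 ± 0.26, with a WT mean only 0.38 over that median. Cd180, a TLR4-like protein of B cells and macrophages, differed by 0.86 ± 0.27, and in both genes the groups did not overlap. Ly96, the TLR4 partner MD-2, named after its value was seen, differed by -0.18 ± 0.22. Of 16 measured genes 12 were above 0, with a median of 0.17, in pools where the general macrophage list was also above WT.

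The other inflammasome sensors had differences of both signs. Naip5, a sensor of flagellin, was at 0.93 and 1.09 in the WT pools and at 2.04 and 2.97 in the KO pools, a difference of 1.49 ± 0.33 (SE; limma, adjusted p = 0.297). The WT mean of Naip5 was only 0.47 over the probe sets' median. Naip6, a relative of Naip5, differed by 0.91 ± 0.27. The regulator Nlrp12 differed by -0.82 ± 0.24, from 3.24 and 2.73 in WT to 2.08 and 2.25 in KO. In all 3 the groups did not overlap, and the tested genes of the list ran from -0.82 to 1.49. Naip2, named after its value was seen, had the opposite sign, at 3.28 in both WT pools and at 2.32 and 2.89 in the KO pools, a difference of -0.67 ± 0.25 (SE; limma, adjusted p = 0.462). The Naip genes are close relatives, so a probe set may measure more than 1 of them, and the values of single Naip genes are uncertain. Of 11 measured sensors 4 were above 0 and 7 below, with a median of -0.12.

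Casp4 and Casp12 lay above both WT pools in both KO pools, without passing the adjusted threshold. Casp4, the mouse caspase-11 that binds LPS inside the cell and cuts gasdermin D, was at 1.53 and 1.92 in the WT pools and at 2.84 and 2.61 in the KO pools, a difference of 1.00 ± 0.23 (SE; limma, adjusted p = 0.297). Casp12, a related caspase, differed by 0.83 ± 0.23 and P2rx7, the ATP-gated channel that triggers NLRP3, by 0.59 ± 0.22, both without overlap. Of 12 measured regulators and death effectors 9 were above 0, with a median of 0.17. Casp1 itself, from the same gene cluster, stood at 0.080 ± 0.28.

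**Figure D4:**
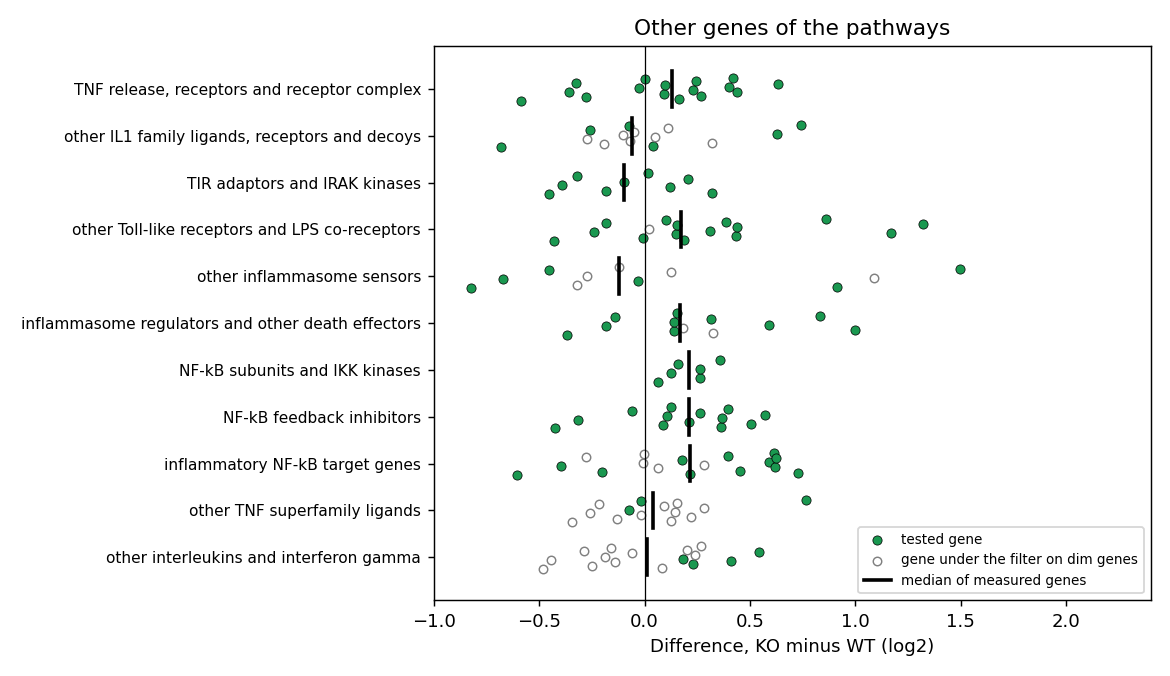
Log2 difference between genotypes (horizontal axis, KO minus WT) of each measured gene in 11 lists of pathway genes; filled points were tested, open points were under the filter on dim genes, and the black bar is the list's median. The points at the right end are Naip5 at 1.49 and Cd14 at 1.32, and list medians lie between -0.12 and 0.22.

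Genes that NF-kB is known to induce had differences of both signs. Lcn2, an iron-binding acute phase protein, differed by 0.62 ± 0.20, from 6.19 and 6.45 in WT to 6.98 and 6.90 in KO, and Tnfaip2, a gene named for its induction by TNF, by 0.61 ± 0.23. Saa3, an inducible serum amyloid A, lay on the other side at -0.60 ± 0.21, from 4.79 and 5.13 in WT to 4.41 and 4.30 in KO. In each of these 3 genes the groups did not overlap, and none passed the adjusted threshold by limma. Of 17 measured target genes 11 were above 0 and 6 below, with a median of 0.22. Il6, named after its value was seen, was below the median of all probe sets in every pool and differed by -0.28 ± 0.21.

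Other cytokines of the TNF superfamily and other interleukins were mostly under the filter on dim genes, with 3 of 14 and 4 of 16 measured genes above it. Ltb, a lymphotoxin of lymphocytes, differed by 0.76 ± 0.25 without overlap, but was tested only through its KO pools, with a WT mean 0.20 below the median of all probe sets and a KO mean 0.56 above it. Tnfsf10, the death ligand TRAIL, differed by -0.073 ± 0.38 and Tnfsf13b, the B cell factor BAFF, by -0.017 ± 0.21. Il23a differed by 0.54 ± 0.27, Il15 by 0.41 ± 0.33 and Csf2 by 0.23 ± 0.21, of which the last 2 had overlapping pools. Il23a too was tested only through its KO pools, with a WT mean 0.25 below that median and a KO mean 0.29 above it. The list medians were 0.039 and 0.011. The small medians of several lists depended on 1 pool. The list of TNF release and receptor genes was at -0.051 and that of interleukins at -0.12 without KO pool 2, and that of adaptors and IRAK kinases at 0.076 without WT pool 2.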

How the data were processed

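Pooled liver RNA, 400 ng an array per the labels' protocols, was hybridised to 4 arrays, 2 per genotype. For 41345 probe sets the authors' deposited log2 values were taken as given. RMA, limma and oligo are named, per the submitters' processing notes, with version, build and annotation not given in the sources used here. Array medians were 0.52 to 0.64 and values ran from -1.12 to 11.9, so the zero point is unknown. No detection calls, scan dates or slides were used here, and precision is limited by having 4 arrays.

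Of the probe sets, 23521 had 1 gene symbol in the platform annotation, 1814 several and 16010 none, and only the first were used. The brightest probe set stood for a gene, and the 12458 of 22180 genes not below the median probe set mean (0.54) were tested. The genotypes were compared in limma 3.58.1 (R 4.3.3; lmFit, eBayes) with no covariate. Values under the filter come from the same fit of all genes. The limma p-values set differences against the spread between pools, estimated with 2 residual and 3.67 prior degrees of freedom. The prior part is shared across genes, and the spread between animals is not measured. The procedure was tested on simulated data.

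The members, pathway lists and marker lists were chosen with earlier results of these data known. Named are the members, Nrg4 and the 3 tested genes of each pathway list with the smallest p. Defining markers are named for the monocyte-derived, neutrophil, cholangiocyte and stellate cell lists only. Platform annotation did not give a single symbol for 9 of the 153 pathway genes, which were not analysed here. Alternatives were quantile normalization, median centring, no and a stricter filter (1 above that median), a variance trend, the mean of probe sets, the replicate number as a block and leaving out each pool. Differences between WT pools and between KO pools correlated at -0.0368 over tested genes, and the labels call the pools independent, so the shared numbers do not pair them.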

Additional observations from a re-analysis of the deposited data

How the results depend on the processing

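No member was called under any of the 11 alternatives (limma). The count of genes called over the whole table was 6, with 136 for a variance that follows intensity, 2 with the replicate block and 0 without any 1 pool (906 to 1314 at an unadjusted p under 0.05). The replicate block cannot change a difference, as each genotype holds both replicate numbers, so the median of the members was again 0.18. With that block Tnf was at an adjusted p of 0.373 (limma). Over all alternatives the adjusted p of Tnf lay between 0.231 and 0.661, and that of Nrg4 between 0.110 and 0.754. Without any 1 pool the median of the members lay between 0.073 and 0.39, and Nrg4 between -1.60 and -1.37. With quantile normalization Il1b was at -0.022 and Casp1 at -0.016. Without any 1 pool, differences that changed sign ranged from -0.39 to 0.50 for Il1b, -0.31 to 0.52 for Il18, -0.11 to 0.40 for Nlrp3, -0.18 to 0.87 for Pycard, -0.25 to 0.41 for Casp1, -0.070 to 0.18 for Gsdmd and -0.18 to 0.60 for Tlr4. Among pathway genes they ranged from -0.99 to 0.087 for Irak1, -0.11 to 0.64 for Rel, -0.60 to 0.45 for Tnfsf10, -0.17 to 0.14 for Tnfsf13b, -0.024 to 0.51 for Tnfrsf1a and -0.11 to 0.063 for Tnfrsf1b. The cause of these changes was not tested. After the data were seen, the medians of the marker lists were also taken without the gene furthest from 0, and that of Kupffer cell markers was then 0.33 in place of 0.16. Genes near the median of all probe sets, such as Nlrp3, Pycard and Il6, have little signal over background, and small changes in them could not be seen.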
